A study of Homo sapiens with 12 samples.

Results

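The MYC and MAX network, a set of 10 genes for paired DNA-binding proteins, was followed through cells and extracellular vesicles (EVs) of the human embryonic kidney line HEK293 under normoxia and hypoxia. Its members were taken by name: MYC, MYCN, MYCL, MAX, MXI1, MXD1, MXD3, MXD4, MNT and MLX. All 10 were found among the 57773 gene IDs of the deposited table, and all 10 passed the filter on low values in each comparison. The study set RNA carried by EVs beside the RNA of the cells that release them. Every group carried the same 4EC1 plasmid, which the design text spells out as eGFP, EIF4E, YTHDF1, GBP1 and CD9, after 48 h of lipofection, so the controls carried it too. There were 4 groups of 3 libraries: cells kept in normoxia, cells held for 24 h in a hypoxia chamber, and the EVs of each. Cells without the plasmid were not analysed here, and the labels give neither the oxygen level nor the share of cells that took up the plasmid. Nothing in the labels ties replicates to separate cultures, and the p-values here reflect the spread of these libraries alone, which may be technical. These are bulk samples, in which fewer cells with a transcript and less transcript per cell cannot be told apart.

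MYC, MYCN and MYCL encode basic helix-loop-helix leucine zipper proteins that bind DNA only as dimers with MAX, mostly at the E-box CACGTG, where they promote transcription of genes for ribosome assembly, nucleotide synthesis and growth. MXI1, MXD1, MXD3, MXD4 and MNT encode proteins that take the same partner and the same site but recruit the SIN3 histone deacetylase complex and repress. MLX is a MAX-like partner that can pair with some of these repressors and with the glucose-responsive proteins MLXIP and MLXIPL. Hypoxia-inducible factors (HIFs) are known to induce MXI1 and to oppose MYC by several routes in hypoxic tumour cells.

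Promoter windows of RefSeq genes on GRCh38.p14, from 250 bases before to 50 bases after each annotated start, were available for 9 of the 10 members, in 12 windows. Both strands of each window were searched for the E-box CACGTG and for the core of the hypoxia response element, ACGTG or GCGTG, which an E-box also contains. The E-box was found in windows of 3 members (MXD4, MNT and MLX), against 7.26% of all 35116 windows of the same length. The hypoxia core was found in 8 windows of 7 members, of which 5 members had a copy outside an E-box, against 48.4% of all windows. Those 5 members were MYCL, MXD3, MXI1, MAX and MLX, and the windows of MYCL, MXD3 and MAX are not shown. The windows below belong to the member that rose most in hypoxic cells and to the members with an E-box, and are written 5′ to 3′ along the gene with E-boxes and cores in capitals (CACGT and CACGC are cores read on the other strand). A match describes the letters of the window and is no measure of binding.
MXI1, chr10:110209981-110210280, plus strand: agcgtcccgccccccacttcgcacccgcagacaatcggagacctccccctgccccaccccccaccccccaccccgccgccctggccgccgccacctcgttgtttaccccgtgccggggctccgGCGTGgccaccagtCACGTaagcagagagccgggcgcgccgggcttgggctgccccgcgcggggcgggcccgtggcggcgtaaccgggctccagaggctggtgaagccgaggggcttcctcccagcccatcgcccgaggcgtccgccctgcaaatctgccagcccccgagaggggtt
MXI1, chr10:110225746-110226045, plus strand: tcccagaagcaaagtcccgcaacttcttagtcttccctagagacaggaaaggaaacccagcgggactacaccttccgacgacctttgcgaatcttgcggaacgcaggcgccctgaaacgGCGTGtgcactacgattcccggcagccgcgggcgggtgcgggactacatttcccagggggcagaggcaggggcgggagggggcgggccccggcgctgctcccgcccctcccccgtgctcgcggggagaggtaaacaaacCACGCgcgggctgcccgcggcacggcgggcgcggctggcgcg
MLX, chr17:42566850-42567149, plus strand: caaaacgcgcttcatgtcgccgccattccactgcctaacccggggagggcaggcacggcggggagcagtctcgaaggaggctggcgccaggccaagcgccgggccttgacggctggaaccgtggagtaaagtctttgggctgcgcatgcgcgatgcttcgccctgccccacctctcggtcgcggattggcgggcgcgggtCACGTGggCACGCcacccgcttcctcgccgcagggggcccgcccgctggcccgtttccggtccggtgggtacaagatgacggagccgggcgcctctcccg
MNT, chr17:2401011-2401310, minus strand: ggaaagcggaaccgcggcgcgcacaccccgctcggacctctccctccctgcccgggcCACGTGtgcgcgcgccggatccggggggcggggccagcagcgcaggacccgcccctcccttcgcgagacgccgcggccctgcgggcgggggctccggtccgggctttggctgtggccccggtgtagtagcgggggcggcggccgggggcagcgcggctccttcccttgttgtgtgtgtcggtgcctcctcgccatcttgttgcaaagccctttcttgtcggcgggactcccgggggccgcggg
MXD4, chr4:2262060-2262359, minus strand: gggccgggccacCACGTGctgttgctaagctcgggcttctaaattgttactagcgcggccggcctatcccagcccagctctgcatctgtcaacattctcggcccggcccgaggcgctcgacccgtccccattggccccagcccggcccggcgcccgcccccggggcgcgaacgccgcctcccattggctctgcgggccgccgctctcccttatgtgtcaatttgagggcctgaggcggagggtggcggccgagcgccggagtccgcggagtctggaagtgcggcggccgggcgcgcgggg

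MXI1 had 3 windows at separate annotated starts, of which the 2 shown held hypoxia cores and no E-box and the other held neither. In the MLX window the E-box began 50 bases before the start, in the MNT window 193 bases before it and in the MXD4 window 238 bases before it.

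The libraries of cells held 18059381 to 23400813 reads, those of normoxia EVs 5266244 to 7001767 and those of hypoxia EVs 3259453 to 6129782. All 8 HEK293 markers in the table had a mean of at least 10 units in every group. The HIF targets BNIP3, SLC2A1 and VEGFA were higher in hypoxia cells by 1.67, 1.27 and 1.10 on the log2 scale (limma, adjusted p = 1.31e-32, 1.51e-22 and 7.6e-21). Of the 8 label check genes tested in cells 7 were higher and 1, HIF1A (-0.46, limma, adjusted p = 2.69e-07), was lower, and of 9 tested in EVs none was higher and HIF1A was lower (-0.83, limma, adjusted p = 0.0497); HIF1A is named here because of these values. CA9, another HIF target, stood at 0.887 ± 0.833 and 5.27 ± 1.85 units in normoxia and hypoxia cells, under the filter. In EVs BNIP3, SLC2A1 and VEGFA gave 0.30, 0.12 and -0.19, none past the threshold (limma, adjusted p = 0.391, 0.725 and 0.495). Reads on EIF4E, YTHDF1 and CD9, where plasmid and endogenous transcripts cannot be told apart, took 5.89% to 7.28% of the deposited values in cells and 19.97% to 24.4% in EVs. EIF4E, YTHDF1 and CD9 are called the construct genes below. GBP1, also named for the plasmid, was not counted among them. Reads on 350 olfactory receptor genes, a stand-in for background whose silence was not tested, averaged 0.384 to 0.859 units per kb in cell libraries. They came to 1.49, 2.55 and 4.97 units per kb in normoxia EV replicates 1, 2 and 3 and to 8.05 to 9.06 in hypoxia EVs.

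Deposited values are read counts divided by a factor per library, called units here, and levels of different genes were compared per kb of exon. MYC had the highest level per kb of the 10 genes in all 4 groups and MYCN the lowest. In normoxia cells MYC stood at 465 ± 22.6 units per kb (SD, n = 3 here and below). MLX followed at 140.5 ± 16.04, MAX at 128 ± 6.45, MXD4 at 101 ± 8.73, MXI1 at 91.2 ± 6.67, MNT at 47.5 ± 1.81, MXD1 at 39.7 ± 3.56 and MXD3 at 20.9 ± 0.816 units per kb. MYCL and MYCN closed the order at 10.8 ± 1.49 and 7.11 ± 2.33 units per kb. Libraries overlapped between 3 pairs of neighbours in that order: MLX and MAX, MXD4 and MXI1, and MYCL and MYCN. Of the 3 MYC genes, MYC itself thus made up 96.3% ± 0.599 of the summed level per kb in normoxia cells and 88.3% ± 2.20 in hypoxia cells.

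**Figure D1:**
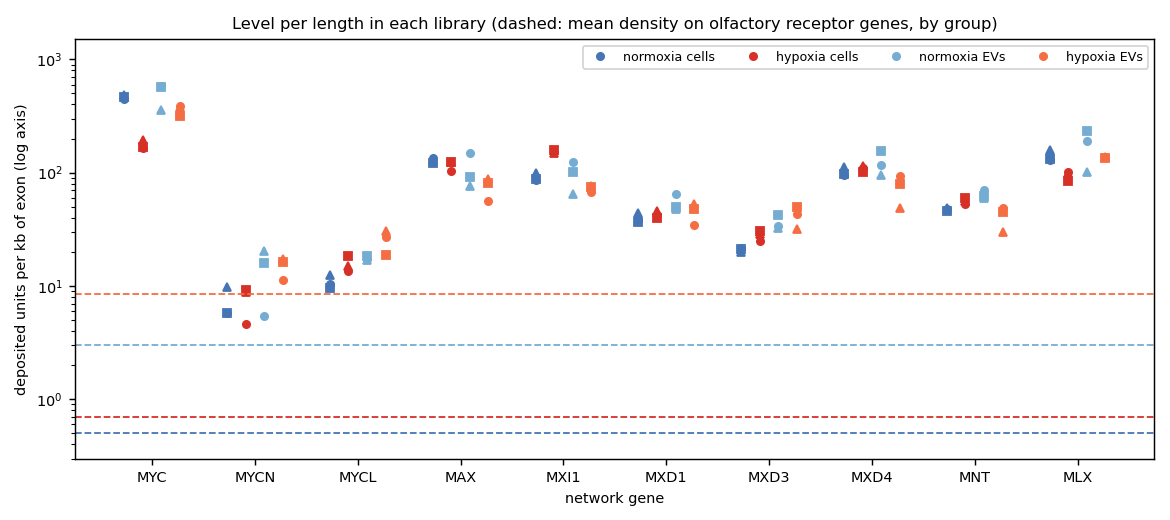
Level of each network gene in deposited units per kb of exon (log axis) in the 12 libraries, coloured by group, with the mean density on olfactory receptor genes of each group as a dashed line. MYC is the highest gene in every group, MYC and MXI1 approach each other in hypoxia cells at 175 and 153 units per kb, and MYCN in hypoxia EVs, at 15.04 units per kb, lies nearest to the dashed line of that group at 8.51.

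The order changed in hypoxia cells. MYC fell to 175 ± 16.5 units per kb and MXI1 moved from the fifth to the second place at 153 ± 5.11, with no overlap between the libraries of these genes (164 to 194 for MYC and 148 to 158 for MXI1). MLX moved from the second to the fifth place at 94.99 ± 9.46 units per kb. Of the neighbours in the new order only MAX and MXD4 overlapped, at 118 ± 11.5 and 109 ± 6.57 units per kb. With the longest transcript in place of the exon union as the length, 6 of the 10 genes held their place in hypoxia cells and 8 in normoxia cells, MYC and MXI1 among them in both. With that length, however, the hypoxia cell libraries of MYC and MXI1 overlapped, at 208 to 246 and 197 to 210 units per kb.

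In normoxia EVs the order was MYC at 505 ± 126 units per kb, MLX at 175 ± 67.6, MXD4 at 122 ± 30.2, MAX at 106 ± 38.8, MXI1 at 96.6 ± 29.7, MNT at 64.1 ± 5.77, MXD1 at 53.8 ± 9.21, MXD3 at 36.2 ± 5.004, MYCL at 17.6 ± 0.787 and MYCN at 13.9 ± 7.60. Libraries of 6 of the 9 neighbouring pairs overlapped, so the middle of this order is not fixed by these libraries. In hypoxia EVs MYC stood at 362 ± 38.1 units per kb and MLX at 137 ± 1.52, both apart from the genes below them. MAX, MXD4 and MXI1 followed at 74.8 ± 16.2, 74.02 ± 23.1 and 72.5 ± 4.80 units per kb and overlapped. MXD1, MXD3, MNT and MYCL came next at 44.9 ± 9.14, 41.6 ± 9.14, 41.2 ± 10.0 and 25.4 ± 6.07 units per kb, also overlapping from one to the next, and MYCN at 15.04 ± 3.29 lay below them. Unlike in hypoxia cells, MXI1 kept the fifth place in the EVs of both oxygen levels.

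In cells, the question was which network genes answered hypoxia. MYC fell, MLX fell, and the repressor genes MXI1, MXD3 and MNT rose, so 5 of the 10 genes passed the threshold (limma on log2(value + 1), adjusted p under 0.05 over all genes). Among all 17260 genes tested 30.4% passed it, 8.01% higher and 22.4% lower. That balance depends on the scaling: 1383 genes were higher and 3871 lower as deposited, against 2304 higher and 2043 lower with equal totals, where 5 members were higher and 2 lower. The libraries of the groups did not overlap for 6 of the 10 genes, against 40.3% of all genes. The median difference of the 10 genes was 0.11 on the log2 scale, beside -0.07 for all genes tested.

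MYC, the most abundant activator, stood at 1331, 1389 and 1466 units in normoxia cells and at 492, 504 and 583 units in hypoxia cells. Every hypoxia library was below every normoxia library, and the hypoxia mean was 0.377 of the normoxia mean. The difference was -1.41 on the log2 scale (SE 0.08, limma, adjusted p = 1.29e-24), and MYC kept its call in all 18 alternative analyses. MYCN, an activator of neural and embryonic tissues, stood at 14.9 to 25.5 units in normoxia cells and 11.9 to 24.2 in hypoxia cells, on 22 to 53 reads a library, and the groups overlapped (difference 0.07, 95% interval -0.75 to 0.89, limma, adjusted p = 0.925). MYCL, the third activator, stood at 52.3, 48.5 and 63.0 units in normoxia cells and at 68.1, 92.7 and 76.0 in hypoxia cells. Its groups did not overlap, but the difference of 0.52 (SE 0.22) missed the threshold (limma, adjusted p = 0.0661). It passed with TMM factors, with equal totals, and with edgeR and DESeq2 on the recovered reads (adjusted p = 0.0228 to 0.0441).

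MAX, the partner that every MYC protein needs, stood at 591, 535 and 569 units in normoxia cells and at 462, 551 and 549 in hypoxia cells. The groups overlapped, and the difference of -0.12 (95% interval -0.30 to 0.05) was not past the threshold (limma, adjusted p = 0.321). MLX, the partner of MLXIP and MLXIPL, stood at 555, 563 and 677 units in normoxia cells and at 432, 358 and 423 in hypoxia cells. All hypoxia libraries were lower, and the difference was -0.56 (SE 0.09, limma, adjusted p = 1.51e-06). PSMC3IP overlaps 770 bases of MLX exons on the opposite strand. It stood at 701 units in normoxia cells against 805 in hypoxia cells, opposite to MLX, and at 1202 in normoxia EVs against 591 in hypoxia EVs, the direction of the MLX means (745 and 583). Its part in the MLX values was not tested.

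Among the repressors, MXI1 rose most. It stood at 398, 408 and 455 units in normoxia cells and at 701.5, 730.1 and 683 in hypoxia cells, 1.68 times the normoxia mean. The difference was 0.75 (SE 0.09, limma, adjusted p = 1.25e-10) with no overlap, and it held in each of the 6 analyses that left out a library. MXI1 and MLX lost their calls in 1 of 18 alternatives, a fit that shared its spread with the EV libraries (adjusted p = 0.131 and 0.446). MNT, the most widely expressed of the MAX-bound repressors, stood at 419, 397 and 428 units in normoxia cells and at 458, 524 and 496 in hypoxia cells (difference 0.25, SE 0.09, limma, adjusted p = 0.0335). MXD3, known from dividing cells, stood at 111, 109.7 and 103 units in normoxia cells and at 128, 156 and 147 in hypoxia cells (difference 0.41, SE 0.16, limma, adjusted p = 0.0443).

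The calls of MNT and MXD3 depended on single libraries. MNT passed in 2 of the 6 analyses that left out a library, those without normoxia cell replicate 3 and without hypoxia cell replicate 1. MXD3 passed in 1 of them, that without hypoxia cell replicate 1. MXD4 and MXD1, repressors known from differentiating cells, overlapped between the groups. MXD4 stood at 672 to 785 units in normoxia cells and 717 to 807 in hypoxia cells (difference 0.11, 95% interval -0.05 to 0.27, limma, adjusted p = 0.332), and MXD1 at 234 to 278 and 254 to 289.5 units (difference 0.10, 95% interval -0.13 to 0.33, limma, adjusted p = 0.552). Equal totals per library shifted the median of all genes from -0.07 to 0.06 and brought MXD4 past the threshold (difference 0.23, limma, adjusted p = 0.0173).

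**Figure D2:**
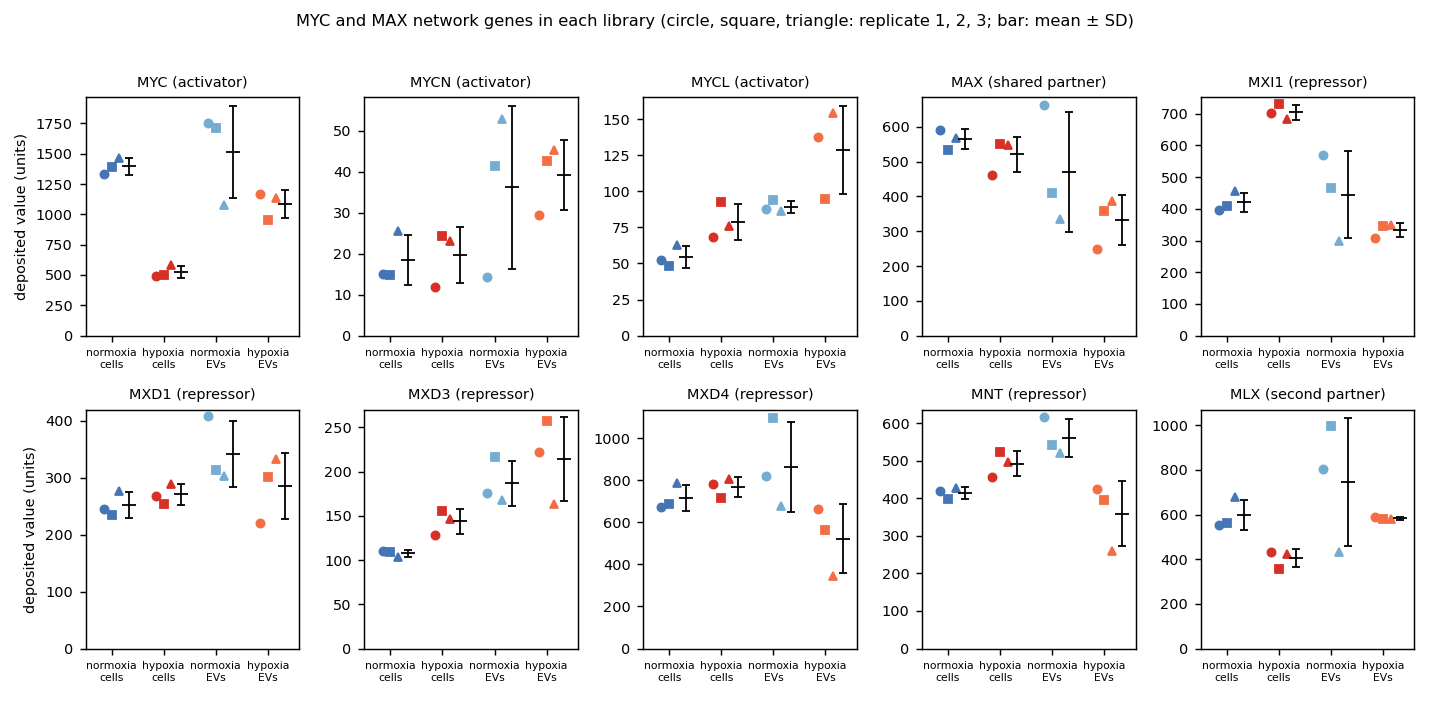
Deposited value of each network gene in the 12 libraries by group, with replicates 1, 2 and 3 as circle, square and triangle and the mean ± SD as a bar. In cells MYC and MLX are lower and MXI1 higher in all 3 hypoxia libraries, while normoxia EV replicate 3 stands apart from the other normoxia EV libraries for MYC, MXI1 and MLX.

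Ratios of genes within a library do not depend on how libraries were scaled. MXI1 per kb was 0.196 ± 0.00566 of MYC in normoxia cells and 0.879 ± 0.1003 in hypoxia cells. All 3 hypoxia cell libraries (0.763 to 0.944) lay above all 3 normoxia cell libraries (0.191 to 0.202). The 5 repressor genes summed per kb came to 0.622 ± 0.0148 of the 3 MYC genes in normoxia cells and to 1.97 ± 0.152 in hypoxia cells, so the repressor sum was the larger in hypoxia cells. In EVs neither ratio set the groups apart. MXI1 was 0.190 ± 0.0194 of MYC in normoxia EVs and 0.202 ± 0.0319 in hypoxia EVs, with overlapping libraries. The repressor sum was 0.703 ± 0.0476 of the MYC genes in normoxia EVs and 0.690 ± 0.141 in hypoxia EVs. MLX per kb was 1.10 ± 0.131 of MAX in normoxia cells and 0.817 ± 0.149 in hypoxia cells, against 1.71 ± 0.716 and 1.90 ± 0.486 in the EVs, and hypoxia EVs overlapped normoxia EVs. In cells the libraries ran from 0.976 to 1.24 under normoxia and from 0.676 to 0.973 under hypoxia.

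**Figure D3:**
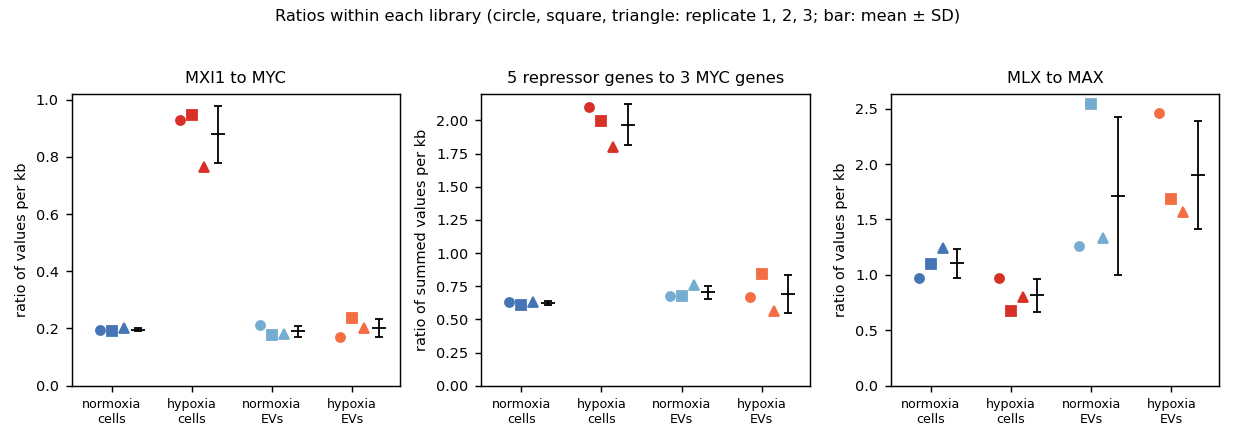
Ratios within each library, from values per kb, of MXI1 to MYC, of the 5 repressor genes to the 3 MYC genes and of MLX to MAX, with replicates as circle, square and triangle and the mean ± SD as a bar. The hypoxia cell libraries stand apart in the first and second panel (0.763 to 0.944 and 1.80 to 2.10), while in those panels the EV libraries of both oxygen levels lie near the normoxia cells.

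Genes that MYC is known to activate were mostly lower in hypoxia cells. Of 39 tested, 33 fell and 1 rose, beside 22.4% lower and 8.01% higher over all genes, with a median of -0.43 on the log2 scale beside -0.07. NPM1 and NCL, abundant nucleolar proteins of ribosome assembly, fell from 28204 to 18704 units (-0.59, SE 0.05, limma, adjusted p = 4.61e-15) and from 27508 to 19352 units (-0.51, SE 0.05, limma, adjusted p = 4.01e-12). PHB1, a mitochondrial scaffold protein, fell from 1408 to 862 units (-0.71, SE 0.07, limma, adjusted p = 4.56e-13). The gene that rose was TFRC, the transferrin receptor and also a known HIF target, from 2170 to 3872 units (0.84, SE 0.06, limma, adjusted p = 3.15e-19). With equal totals 29 fell and 1 rose. In the fit that shared its spread with the EV libraries, calls among all genes went from 5254 to 84, none of the 39 fell past the threshold, and 1 gene of this list and 1 MYC-repressed gene were the only calls among the lists on MYC, MLX and their cofactors.

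Genes that MYC is known to repress gave 3 of 10 higher and none lower, with a median of 0.28. NDRG1, a stress-responsive gene that HIFs also induce, rose from 1143 to 2305 units (1.01, SE 0.06, limma, adjusted p = 1.38e-21). GADD45A and GADD45B, growth arrest genes, rose by 0.37 and 0.50 (limma, adjusted p = 0.00119 and 0.00479). With equal totals 5 of the 10 were higher. Targets of the MLX partners were tested for 3 genes, and all 3 rose: KLF10, a transcription factor, by 0.71, ARRDC4 and ARRDC3, arrestin domain proteins, by 0.56 and 0.29 (limma, adjusted p = 8.18e-09, 2.65e-07 and 0.0486).

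Of the partners outside the 10 genes, MLXIPL, the glucose-responsive factor ChREBP, rose from 159 ± 18.1 to 252.5 ± 26.0 units (0.66, SE 0.13, limma, adjusted p = 3.88e-05). MLXIP, its relative MondoA, fell from 1819 ± 34.6 to 1472 ± 92.2 units (-0.31, SE 0.06, limma, adjusted p = 9.97e-05). MGA, a large MAX partner of a repressive complex, stood at 2540.2 ± 108 and 2377 ± 75.3 units (-0.10, limma, adjusted p = 0.231).

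Cofactor genes that passed the test were all lower, in a comparison where 22.4% of all genes were lower and 8.01% higher. Of 18 MYC coactivators and partners 7 fell and none rose, led by the ATPase genes RUVBL1 (-0.65) and RUVBL2 (-0.52), then WDR5 (-0.32), which anchors MYC to chromatin, and PAF1 (-0.29), of an elongation complex. Of 17 genes of the SIN3 corepressor, the complex of the MXD proteins and MNT, 6 fell and none rose, among them the deacetylases HDAC1 (-0.54) and HDAC2 (-0.31), RBBP7 (-0.33) and BRMS1 (-0.49). Of 17 genes that act on MYC protein turnover 11 fell and none rose, led by the kinases PLK1 (-0.48) and AURKA (-0.47), the ubiquitin ligase STUB1 (-0.58) and the deubiquitinase USP7 (-0.31). The medians of these lists were -0.13, -0.04 and -0.24. With equal totals the counts became 2 higher and 3 lower, 3 higher and 5 lower, and 2 higher and 7 lower, so cofactor genes then passed in both directions, as did all genes.

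Of 15 regulators of the MYC gene and its mRNA 9 fell and 2 rose (6 and 2 with equal totals), with a median of -0.19. CNBP, which binds the MYC promoter, fell by 0.47, and the mRNA-binding proteins IGF2BP2, IGF2BP1 and PTBP1 fell by 0.39, 0.34 and 0.28. PVT1, the long noncoding RNA next to MYC, moved against MYC: it stood at 282, 331 and 247 units in normoxia cells and at 369, 328 and 356 in hypoxia cells (0.30, SE 0.11, limma, adjusted p = 0.029), with groups that overlapped.

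**Figure D4:**
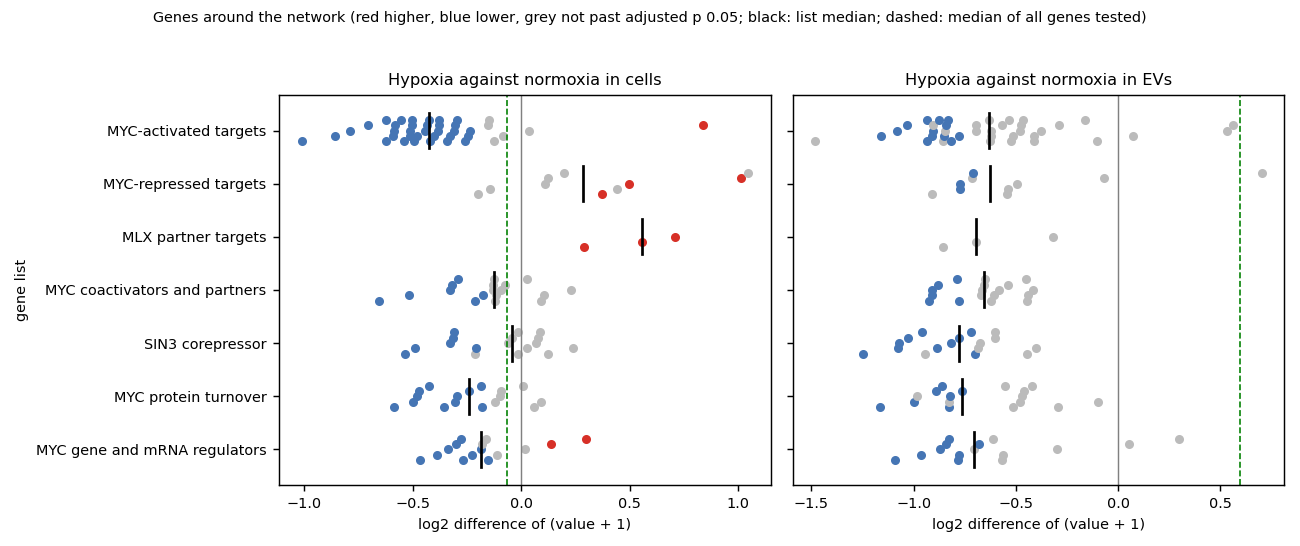
Log2 difference of hypoxia against normoxia for each gene of 7 lists around the network, in cells (left) and in EVs (right), with genes past adjusted p 0.05 in red (higher) or blue (lower), the list median as a black bar and the median of all genes tested as a dashed line (-0.07 in cells and 0.60 in EVs). In cells the MYC-activated genes lie mostly below zero and the MYC-repressed genes mostly above it, while in EVs the medians of all 7 lists lie between -0.63 and -0.78.

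In EVs, the same question gave no call: 0 of the 10 genes passed the threshold by limma, against 12.3% of 27904 genes tested (5.68% higher and 6.62% lower). With equal totals no member passed either, while the calls over all genes went from 1586 higher and 1846 lower to 4223 higher and 189 lower. At an unadjusted limma p under 0.05, a cut not counted over all genes, 2 were lower (MXD4 and MNT). On recovered reads edgeR called 1 gene (MXD4) and DESeq2 2 (MXD4 and MNT), all lower. Over all genes edgeR called 1026 higher and 2477 lower, and DESeq2 1552 higher and 2990 lower. Libraries of the groups did not overlap for 3 of the 10 genes (MYCL, MXD4 and MNT), against 37.9% of all genes. The median of the 10 genes was -0.32, beside 0.60 for all genes tested. When only genes averaging 50 units or more were kept, the median over genes was -0.15.

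The normoxia EV libraries differed among themselves. MYC stood at 1753, 1713 and 1079 units in normoxia EVs and at 1170.2, 956 and 1132 in hypoxia EVs (-0.45, SE 0.22, limma, adjusted p = 0.153). Only normoxia EV replicate 3 lay within the hypoxia range. MXI1 stood at 571, 465 and 299 units in normoxia EVs and at 309, 346 and 348 in hypoxia EVs (-0.36, SE 0.27, limma, adjusted p = 0.32). MLX stood at 806, 998 and 432 units and at 590.5, 579 and 580.1 (-0.27, SE 0.26, limma, adjusted p = 0.451). For both genes normoxia EV replicates 1 and 2 lay above, and replicate 3 below, all hypoxia EVs in these units. Without normoxia EV replicate 3, 5 of the 10 genes were lower past the threshold: MYC by -0.68, MXI1 by -0.63, MLX by -0.62, MXD4 by -0.91 and MNT by -0.72 (limma, adjusted p = 0.00853, 0.0403, 0.0214, 0.0192 and 0.0386). Calls over all genes then went from 3432 to 10078, with 6144 higher and 3934 lower. Normoxia EV replicate 3 had the highest olfactory receptor density of the normoxia EVs, 4.97 units per kb, and whether this bears on its values was not tested.

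MXD4 stood at 818, 1095 and 676 units in normoxia EVs and at 663, 562 and 343 in hypoxia EVs, and MNT at 616, 542 and 519.9 and at 423, 394 and 259.8. Both were lower in all 3 hypoxia libraries, with differences of -0.75 (limma, adjusted p = 0.056) and -0.67 (limma, adjusted p = 0.075). MYCL stood at 88.0, 93.7 and 86.0 units in normoxia EVs and at 138, 94.4 and 154 in hypoxia EVs (0.49, 95% interval -0.33 to 1.32, limma, adjusted p = 0.366), with no overlap. MAX, MXD1 and MXD3 overlapped, at 336 to 664, 303 to 409 and 168 to 216 units in normoxia EVs and at 249.8 to 386, 220.4 to 333 and 164 to 257 in hypoxia EVs. MYCN was read by 6 to 28 reads per EV library, at 14.3 to 52.8 units in normoxia EVs and 29.4 to 45.4 in hypoxia EVs. For MAX, MXD1, MXD3 and MYCN the differences were -0.47, -0.27, 0.18 and 0.27, with limma adjusted p of 0.226 to 0.798.

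Directions in EVs depend on the scaling. Equal totals per library moved the median of all genes from 0.60 to 1.13, and MYC, MAX, MXI1, MXD1 and MLX then turned to 0.12, 0.10, 0.20, 0.30 and 0.30, none past the threshold. Under both scalings these 5 values lay below the median of all genes. The density on olfactory receptor genes, taken over each member's exon length, equalled 2.35% of the MYC value, 11.7% of the MXI1 value, 20.7% of the MNT value, 33.5% of the MYCL value and 56.6% of the MYCN value in hypoxia EVs. With that density subtracted MYCN went from 0.27 to -0.64 and MXD3 from 0.18 to -0.04, and limma called no gene of the EV comparison.

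Marker genes of other sources also stood higher in hypoxia EVs. The summed values of 12 blood and immune markers ran from 55.1 to 79.5 units in cells, 238 to 354 in normoxia EVs and 421 to 549.6 in hypoxia EVs. For 8 liver and plasma markers the sums were 41.8 to 88.6, 133 to 348 and 594 to 749 units, and for 9 endothelial and fibroblast markers they were 405 to 502, 666 to 1286 and 1872 to 1926. None of these markers was at 0 in all libraries of a group, and their part in the member results was not tested.

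As deposited, no gene of the 7 lists around the network rose past the threshold in hypoxia EVs. Of 39 MYC-activated genes 13 fell and none rose, with a median of -0.63, led by DKC1 (-1.16), WDR43 (-1.08) and NOLC1 (-1.03), nucleolar proteins, and the chaperone HSPD1 (-0.93). MYC-repressed genes fell too: 3 of 10 (GADD45A, GADD45B and the ferritin gene FTH1) at a median of -0.63, and 10 of 17 SIN3 genes fell at a median of -0.78, led by HDAC2 (-1.07). Of the other lists, 6 of 18 coactivators, 7 of 17 turnover genes, 8 of 15 MYC gene and mRNA regulators and 0 of 3 targets of the MLX partners fell, beside 6.62% lower over all genes. That share covers all genes averaging 10 units or more, whose median was 0.60. Among genes averaging 50 units or more, 1464 were higher and 2378 lower, at a median of -0.15. Medians were also negative for HEK293 markers (-0.46) and construct genes (-0.69). They were positive for the label check genes (0.07) and the markers of other sources (1.34 to 1.80). The counts of the lists around the network rest on single libraries. Without normoxia EV replicate 3 they were 16 for SIN3 genes, 15 for coactivators, 12 for turnover genes, 12 for regulators and 5 for MYC-repressed genes. Without any other EV library they were 0 to 2 for SIN3 genes, 0 to 3 for turnover genes, 0 to 1 for regulators and 0 for coactivators and MYC-repressed genes. Without normoxia EV replicate 3 the calls over all genes went from 3432 to 10078. They went to 7 without normoxia EV replicate 2 and to 36 without hypoxia EV replicate 3. The count for the MYC-activated genes was 24 without normoxia EV replicate 3, 3 without hypoxia EV replicate 1, 3 without normoxia EV replicate 1, 1 without hypoxia EV replicate 2, and 0 without normoxia EV replicate 2 or hypoxia EV replicate 3. With equal totals 3 MYC-activated genes fell and 1 rose, while calls over all genes went to 4223 higher and 189 lower. Counts of the other lists with equal totals are not given here, so their falls are stated for the deposited scaling only.

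**Figure D5:**
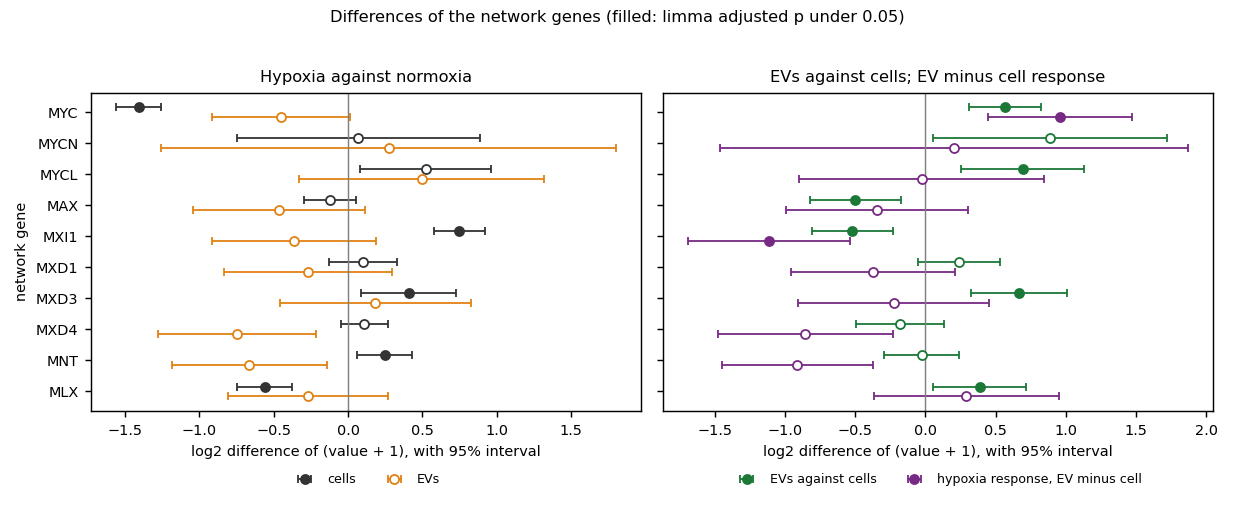
Log2 difference of (value + 1) with its 95% interval for each network gene: hypoxia against normoxia in cells and in EVs (left), and EVs against cells and the EV minus cell difference of the hypoxia responses (right), with filled points past limma adjusted p 0.05. In cells MYC and MLX lie below zero and MXI1, MXD3 and MNT above it, no EV point on the left is filled, and the purple points of MYC and MXI1 lie on opposite sides of zero.

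EVs were then set against cells over both oxygen levels. MYC, MYCL, MXD3 and MLX were higher in EVs and MAX and MXI1 lower, 6 of 10 genes, against 74.9% of 24171 genes tested (43.1% higher and 31.8% lower). The differences were 0.56 (SE 0.12) for MYC, 0.69 (SE 0.21) for MYCL, 0.67 (SE 0.16) for MXD3, 0.38 (SE 0.16) for MLX, -0.50 (SE 0.15) for MAX and -0.52 (SE 0.14) for MXI1, with limma adjusted p of 0.000374, 0.00571, 0.0011, 0.0328, 0.00688 and 0.00218. Libraries of EVs and cells did not overlap for 1 member, MXD3, against 41.2% of all genes. MXD3 stood at 103 to 156 units in the 6 cell libraries and 164 to 257 in the 6 EV libraries. Its exons overlap those of PRELID1 on the opposite strand by 1158 bases and those of RAB24 on the same strand by 926 bases. PRELID1 stood at 1734 units in normoxia cells against 554 in normoxia EVs, and at 1409.8 in hypoxia cells against 304 in hypoxia EVs. RAB24 stood at 75.7 and 70.9 units in the same normoxia groups and at 62.0 and 52.3 in the hypoxia groups, so both were lower in EVs where MXD3 was higher. How shared reads were assigned was not tested.

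The calls of MYC and MXD3 held in all 24 alternative analyses and that of MLX in 12. With equal totals that left out the construct genes MAX and MXI1 missed the threshold (-0.18 and -0.20, limma, adjusted p = 0.208 and 0.0787). With the olfactory receptor density subtracted MYCL missed it (0.32, limma, adjusted p = 0.261). MYCN, at 0.89, lay at the threshold (limma, adjusted p = 0.05, not called) and at 0.21 after that subtraction. MXD1 (0.24), MXD4 (-0.18) and MNT (-0.03) did not pass (limma, adjusted p = 0.126, 0.278 and 0.853). With equal totals MXD1 passed (0.29, limma, adjusted p = 0.0471). With equal totals that left out the construct genes 7 members were higher and none lower: MYCN (1.20, limma, adjusted p = 0.0169), MXD1 (0.56, limma, adjusted p = 0.0008) and MNT (0.29, limma, adjusted p = 0.03) joined MYC, MYCL, MXD3 and MLX, and MXD4 turned to 0.14. MGA, at 974 ± 113 units in normoxia EVs and 595 ± 125 in hypoxia EVs, was lower than in cells by 1.70 on the log2 scale (difference -1.70, SE 0.11, limma, adjusted p = 6.32e-11). Of the MYC-activated genes 33 of 39 were lower in EVs and 5 higher, with a median of -1.28 beside 0.32 for all genes, from TFRC at -3.44 to NCL at 1.69 among those named. When only genes averaging 50 units or more were kept, the median over genes was -0.41, with 3667 higher and 6999 lower. Of the MYC-repressed genes 5 of 10 were higher and 1, NDRG1 (-1.77), lower. All 3 targets of the MLX partners were lower, as were 9 of 17 SIN3 genes (5 higher), 8 of 18 coactivators (4 higher), 10 of 17 turnover genes (3 higher) and 13 of 15 MYC regulators (1 higher).

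Averages over both oxygen levels hide that MYC and MXI1 stood near their cell level in normoxia. The normoxia EV mean of MYC was 1.09 times the normoxia cell mean, and the hypoxia EV mean 2.06 times the hypoxia cell mean. For MXI1 these ratios of means were 1.06 and 0.474. Subtracting the hypoxia response of cells from that of EVs gave 0.96 for MYC (SE 0.24, limma, adjusted p = 0.0439) and -1.11 for MXI1 (SE 0.28, limma, adjusted p = 0.0405), so 1 member was called higher and 1 lower. Of all 24171 genes 2.31% were called, 0.443% higher and 1.87% lower (107 and 452 genes, against 475 and 151 with equal totals), and the median was 0.23 over all genes and -0.29 over the 10 members. The median over genes was -0.16 when only genes averaging 50 units or more were kept, and -0.22 with the olfactory receptor density subtracted. The directions of MYC and MXI1 held in all 24 alternative analyses.

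The calls themselves were near the threshold. MYC passed in 3 of the 12 analyses that left out a library, those without normoxia EV replicate 1, 2 or 3 (adjusted p = 0.0245, 0.0478 and 0.00588), and missed it without any other library, at 0.0622 to 0.135. MXI1 passed in 1, without normoxia EV replicate 3 (-1.37, adjusted p = 0.000245), and missed it without any other library, at 0.0532 to 0.136. With equal totals MYC passed (1.40, adjusted p = 0.00052) and MXI1 did not (-0.67, adjusted p = 0.0773), while the median of all genes in this contrast moved from 0.23 to 0.66. With the olfactory receptor density subtracted 2 members were called lower and none higher, so MYC missed the threshold. MNT (-0.91, limma, adjusted p = 0.0644) and MXD4 (-0.86, limma, adjusted p = 0.118) missed the threshold. Both passed without normoxia EV replicate 3 (limma, adjusted p = 0.0119 and 0.0177), where calls over all genes went from 559 to 5438. For MYCN, MYCL, MAX, MXD1, MXD3 and MLX the differences were 0.20, -0.03, -0.35, -0.37, -0.23 and 0.29, with limma adjusted p of 0.435 to 0.974. Around the network, TFRC (-1.36), NDRG1 (-1.08), GADD45A (-1.14), GADD45B (-1.27) and KLF10 (-1.02), which rose in cells, were called lower in this contrast (limma, adjusted p = 0.00578, 0.0166, 0.0247, 0.0336 and 0.0312).

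Gene positions on GRCh38, from GENCODE release 29, place MYC on chromosome 8, MYCN at chr2:15940564-15947007 and MYCL at chr1:39895426-39902256. MAX lies at chr14:65006174-65102695, MXI1 at chr10:110207605-110287365, MXD1 at chr2:69897688-69942945, MXD3 at chr5:177301461-177312757, MXD4 at chr4:2247432-2262294, MNT at chr17:2384060-2401118 and MLX at chr17:42567068-42573239. How reads on shared exons and strands were counted is not stated in the labels or the table, so members whose exons overlap another gene are uncertain. MYCN overlaps its antisense gene MYCNOS by 98 bases of exon, and MYCNOS stood at 26.5 and 124 units in normoxia and hypoxia EVs, beside 36.2 and 39.1 for MYCN. MXD1 shares 237 bases with SNRNP27 on the same strand, a gene at 732 units in normoxia cells and 2765 in normoxia EVs. The pseudogenes MYCLP1, MYCLP2 and MLXP1 stood at 0 to 4.196 units in cell libraries, and MYCLP1 reached 45.8 ± 22.3 units in hypoxia EVs.

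Genes with a profile most like that of MYC over the 12 libraries were sought among the 10258 protein-coding genes that averaged 100 units or more, by the root mean square distance of centred log2 values. The nearest to MYC were HAND1 (0.29), IMP4 (0.30), EN2 (0.31), CMSS1 (0.32) and ABCF2 (0.33). IMP4, a protein of the nucleolar small-subunit processome, stood at 719 units in normoxia cells against 436 in hypoxia cells, and at 879 in normoxia EVs against 597 in hypoxia EVs. The nearest to MXI1 were RNF213 (0.16), RLF (0.17), TGFB1 (0.19), SMAD6 (0.19) and NXPH4 (0.19). RNF213, a large ubiquitin ligase, stood at 2121 units in normoxia cells against 2925 in hypoxia cells, and at 2029.8 in normoxia EVs against 1636 in hypoxia EVs. The 12 points of each profile share their libraries and depth, so the distances describe these samples.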

How the data were processed

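RNA of 4 groups (normoxia and hypoxia, cells and EVs, 3 libraries each, assigned by the sample titles) was analysed from 1 table of values per gene. The members and gene lists were chosen with earlier results of these data known. The deposited values are a signal: the authors' read counts over 1 factor for each library, as the values themselves show, since whole reads were recovered for 100% of the values within a tolerance of 0.01. Per the submitters' processing notes, the build was hg38 (GRCh38) and the tools included DESeq2 1.30.1 and Bowtie 0.12.2, and per the labels' protocols the libraries were stranded total RNA. No source used here gives the annotation, counter or strand setting. The 52338 IDs found in GENCODE release 29 gave names, positions and exon lengths.

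Differences were tested with limma-trend (version 3.58.1 under R 4.3.3) on log2(value + 1), for genes that averaged 10 units or more over the libraries fitted, with Benjamini-Hochberg adjustment over all genes and a threshold of 0.05. The pseudocount understates changes of low genes. Cells and EVs were fitted separately (6 libraries each), and EVs against cells and the interaction in 1 fit of all 12. On the recovered reads edgeR 4.0.16 and DESeq2 1.42.0 were alternatives, beside other pseudocounts (0.5 and 5), filters (none and 50), scalings, a replicate block, a subtracted background density and leaving out each library. Intervals are 95% intervals from limma's moderated t distribution. The fit was also run on simulated data that gave cells and EVs the same spread, so that run does not speak for the EV libraries. A count of 0 allows 3 reads, on average 1.54 and 1.58 units in normoxia and hypoxia cells and 6.13 and 5.38 units in normoxia and hypoxia EVs, counting error only. Replicates of a group differed by more than counting noise, so none was treated as a library deposited again; this does not show separate cultures.

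Named were all 10 members, PVT1, MGA, MLXIP and MLXIPL, CA9, BNIP3, SLC2A1 and VEGFA as label checks, the construct genes, up to 4 genes with the smallest p of each list, and the 5 nearest profiles of MYC and MXI1. BOP1, TXNIP, NEFL and PECAM1 were not analysed here.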

Additional observations from a re-analysis of the deposited data

Results flagged for a closer look

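The hypoxia response differed between EVs and cells for 2 members by the interaction test. For MYC the EV minus cell difference was 0.96 on the log2 scale (limma, adjusted p = 0.0439, range 0.00052 to 0.135 over its 24 alternatives): MYC fell by 1.41 in cells and gave -0.45 in EVs. In cells it was lower in 3 of 3 hypoxia libraries, and in EVs the groups overlapped. For MXI1 the difference was -1.11 (limma, adjusted p = 0.0405, range 0.000245 to 0.136 over its 24 alternatives): MXI1 rose by 0.75 in cells and gave -0.36 in EVs. The call was kept in 11 of 24 alternatives for MYC and in 8 of 24 for MXI1.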

How the results depend on the processing

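In cells the number of network genes past the threshold (5) became 3 with no filter and 1 with all 12 libraries in 1 fit, and ran from 3 to 5 when a library was left out. In EVs the 0 became 1 with pseudocount 5, a filter mean of 50, TMM factors or edgeR, 2 with DESeq2 and 3 with all 12 libraries in 1 fit, and ran from 0 to 5 when a library was left out. For the EV minus cell difference the 2 became 0 with no filter, 1 with either version of equal totals, and 0 to 4 when a library was left out. With the background subtracted 2 members passed there, both lower, so MYC was not called. For EVs against cells the 6 ran from 5 to 7 when a library was left out and was 4 with the background subtracted. With the replicate block, 5 genes passed in cells, 1 in EVs (MXD4), 7 for EVs against cells and 0 in the EV minus cell difference. A block of oxygen level and number, chosen after seeing the data, also gave 0 there. Same-numbered libraries did not deviate together (correlations -0.161 to 0.0448 over 13674 genes). Such correlations cannot show whether a number marks a shared culture, so the pairing of libraries stays unknown. The cause of these changes was not tested.

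Directions turned as follows. In cells MAX gave 0.0045 with equal totals and 0.019 with equal totals that left out the construct genes, and MYCN ran from -0.10 to 0.38 when a library was left out. In EVs equal totals gave MYC 0.12, MAX 0.10, MXI1 0.20, MXD1 0.30 and MLX 0.30, and 0.084, 0.067, 0.17, 0.26 and 0.26 without the construct genes. MYCN gave -0.0043 with DESeq2 and -0.64 with the background subtracted, where MXD3 gave -0.036, and MYCN ran from -0.28 to 0.63 when a library was left out. For EVs against cells MNT turned to 0.018 with equal totals, 0.29 without the construct genes, 0.019 with DESeq2 and ran from -0.095 to 0.081 when a library was left out, and MXD4 to 0.14 with equal totals without the construct genes. For the EV minus cell difference the 2 versions of equal totals gave MYCL 0.41 and 0.37, MAX 0.095 and 0.048, MXD1 0.068 and 0.021, and MXD3 0.21 and 0.17. MYCN gave -0.10 with edgeR and -0.67 with the background subtracted. When a library was left out MYCN ran from -0.34 to 0.56, MYCL from -0.17 to 0.18 and MLX from -0.059 to 0.54.

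Counts over all genes moved by over 1.5 times as well. In EVs 3432 calls became 7 to 10078 when a library was left out, 5311 with pseudocount 5, 5409 with the replicate block, 8238 with all 12 libraries and 0 with the background subtracted. In the EV minus cell difference 559 became 38 to 5438 when a library was left out, 105 with no filter, 873 with a filter mean of 50, 1468 with TMM factors, 1664 with edgeR, 2189 with DESeq2, 1149 with the background subtracted and 326 and 328 with the blocks. For EVs against cells 18094 became 10666 with a filter mean of 50, which also leaves fewer genes to test. The balance there moved from 10414 higher and 7680 lower to 3667 higher and 6999 lower.

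With longest transcript lengths MXI1 to MYC in normoxia cells became 0.205, and the repressor sum to the MYC genes became 0.759, 2.35, 0.872 and 0.863 in cells (normoxia, hypoxia) and EVs (normoxia, hypoxia). EV libraries hold 3259453 to 7001767 reads, so MYCN (6 to 28 reads) and MYCL (37 to 103 reads) are limited there by depth.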
